A study of Mus musculus with 56 samples.

Results

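Psap and 8 further genes of the lysosome were followed in gastrocnemius, the main muscle of the mouse calf, through RNA sequencing of 56 mice. The 9 genes are a named list out of the 15539 genes in the deposited count table. Psap was chosen by its measured level, which in mice labelled HuRm-/- was below that of controls in both sexes under locked wheels, so the locked-wheel label comparisons are descriptions here, without tests. The other members are Lamp1, Lamp2, Ctsb, Ctsd, Ctsl, Gaa, Grn and Tfeb. All 9 passed the filter on low counts, and their counts per mouse ran from 144 (the lowest for Grn) to 8896 (the highest for Ctsd).

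The mice were C57Bl/6 and were fed chow. HuR is the RNA-binding protein encoded by Elavl1. The knockout mice carry a floxed Elavl1 gene and a Cre recombinase driven by the Mlc1f promoter, which belongs to Myl1, a gene of fast muscle fibres, and the controls are HuR fl/fl littermates, so the floxed allele is shared by all 8 groups. Wheels were either free to turn or locked, and the labels place the 10 weeks of wheel exposure between weeks 10 and 20 of life in one field and at 5 months of age in another. The groups, 7 mice each, were male controls and males labelled HuRm-/- with locked wheels (MC and MH), the same with running wheels (MCE and MHE), and the corresponding 4 groups of females (FC, FH, FCE and FHE). The other lysosomal genes were set beside Psap, and the running mice, which the choice of Psap did not use, beside the locked ones.

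Lysosomes are acidic organelles in which proteins, lipids and glycogen are broken down, including material that autophagosomes deliver. Psap encodes prosaposin, a precursor that is cut into saposins A to D, small activator proteins that lysosomal hydrolases need to reach sphingolipids. Lamp1 and Lamp2 are the main glycoproteins of the lysosomal membrane, Ctsb, Ctsd and Ctsl are cathepsin proteases, and Gaa is the acid alpha-glucosidase that degrades glycogen and whose loss causes Pompe disease, a disease of muscle. Grn encodes progranulin, a secreted and lysosomal protein that is carried to lysosomes together with prosaposin, and Tfeb is a transcription factor that activates many lysosomal genes.

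Tfeb and its relatives bind DNA around the core CACGTG, which reads the same on both strands and is searched here once. RefSeq promoter windows on GRCm38.p6, each from 250 bases before to 50 bases after an annotated start, were found for 8 of the 9 members, and the motif occurred in the windows of 4 of them. Of 32851 promoter windows of the same length, 7.15% hold it. This share counts single windows, whereas the members are counted as genes, of which Psap has 2 windows and Tfeb 3. Counted from the RefSeq start of each window, the first base of the motif lay 61, 45, 28 and 15 bases before that of Lamp1. For Ctsd it lay 245 and 98 before, for Ctsl 236 and for Gaa 140. The Ctsl window (minus strand, chr13:64370471-64370770) lies inside the GENCODE gene span given below, which ends at 64370890, so this match is within that span. The Ctsd copy at 98, in chr7:142387828-142387977, is also inside its GENCODE span, which ends at 142388038. The motif was not found in the windows of Psap, Lamp2, Grn or Tfeb. The 150 bases before the first start of Psap (plus strand, chr10:60277478-60277627) and before Lamp1 (plus strand, chr8:13159011-13159160) are shown as the stretches of the lead gene, which lacks the motif, and of the member with the most copies, with the motif in capitals.
Psap: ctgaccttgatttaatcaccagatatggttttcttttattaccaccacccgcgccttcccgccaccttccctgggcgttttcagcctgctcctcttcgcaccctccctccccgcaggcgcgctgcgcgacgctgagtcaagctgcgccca
Lamp1: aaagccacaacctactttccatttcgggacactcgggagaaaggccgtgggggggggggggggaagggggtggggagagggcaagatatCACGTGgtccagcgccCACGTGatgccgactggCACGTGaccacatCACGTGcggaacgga
A match describes these letters alone and says nothing about binding in these muscles.

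The labels were checked first. Elavl1 (chromosome 8, 4285382 to 4325413, minus strand, GRCm38) showed no clear decrease in the labelled mice. Under locked wheels its level, in normalised CPM (counts per 1e+06 counts of a library), ran from 45.3 to 58.6 in labelled males (median 50.5) and 42.0 to 61.9 in male controls (median 54.0), and from 37.9 to 62.3 in labelled females and 38.9 to 48.1 in female controls. Among running males it was higher in the labelled mice by a log2 fold change of 0.44 (limma adjusted p = 0.0242), and 3 running control males were low, at 27.8 (number 13), 30.7 (number 10) and 40.3 CPM (number 25). The gene counts do not separate reads of the floxed part from the rest of Elavl1 or muscle fibres from other cells. The mice are therefore called "labelled HuRm-/-" throughout, and every label direction rests on those labels. Myl1 fell short of every matching control in 5 of 7 labelled locked males, 5 of 7 labelled locked females, 6 of 7 labelled running males and 5 of 7 labelled running females. Total counts per mouse ran from 6639782 to 21633091, and liver markers averaged more than 5 on the log2 scale in 9 of 56 mice, with a range of 0.46 to 7.32. Member calls that were lost without these 9 mice or without the 3 control males are given with and without them, both choices having been made after seeing the data.

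Psap (ENSMUSG00000004207, chromosome 10, 60277627 to 60302597, plus strand) ran from 70.5 to 278 CPM over the 56 mice. In locked males the lowest, median and highest values were 168, 233 and 273 CPM in controls and 92.0, 138 and 203 CPM in labelled mice. In locked females they were 183, 214 and 243 CPM in controls and 70.5, 126 and 198 CPM in labelled mice. In each sex 6 of the 7 labelled mice lay below every control of that sex, and a single mouse lay among the controls, male number 8 and female number 30. The log2 differences, the values by which Psap was chosen, were -0.76 in males (standard error, SE, 0.17) and -0.85 in females (SE 0.17). The lowest male of this comparison, number 11, and the highest labelled male, number 8, are both among the 9 mice with high liver markers, and without those 9 mice the differences were -0.73 and -0.85.

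Running wheels gave a separate set of 28 mice. Running control males stood at 149.9, 161 and 177 CPM (lowest, median and highest) and labelled running males at 80.8, 120 and 168 CPM. Of the 7 labelled males, 4 lay below every control and the other 3, at 150, 161 and 168 CPM, lay within their range. The log2 fold change was -0.41 (SE 0.17, 95% confidence interval -0.75 to -0.07). It did not pass the test over all 14321 genes (limma adjusted p = 0.198). For Psap alone, the two-sided exact permutation test over the 7 and 7 mice gave p = 0.0227, or 0.0454 after Benjamini-Hochberg adjustment over the 2 sexes, where the smallest p possible is 0.000583. Without MHE number 22, the mouse with the lowest Psap and one of the 9 with high liver markers, the log2 fold change was -0.30.

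In running females the groups overlapped widely. Controls stood at 154, 180 and 270.2 CPM and labelled mice at 106, 167 and 278 CPM, with 2 labelled mice below all controls and 1 above them. The log2 fold change was -0.11 (SE 0.17, 95% confidence interval -0.45 to 0.23, limma adjusted p = 0.839; two-sided exact permutation p = 0.65), and without FHE number 21 it was 0.01. Averaged over both sexes of running mice, the log2 fold change of Psap was -0.26 (SE 0.12, limma adjusted p = 0.206). The difference between the sexes in that label effect was 0.30 (SE 0.24, limma adjusted p = 0.805).

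The wheel itself went with Psap levels in different directions in the 4 kinds of mice, given here without a test because the locked groups chose the gene. The log2 difference of running from locked mice was -0.43 in control males, -0.19 in control females, -0.09 in labelled males and 0.55 in labelled females. The 7 running control males, with a standard deviation of 11.3 CPM, were the least spread of the 8 groups, and 4 of them lay below every locked control male. Labelled running females were the most spread, with a standard deviation of 58.6 CPM.

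**Figure D1:**
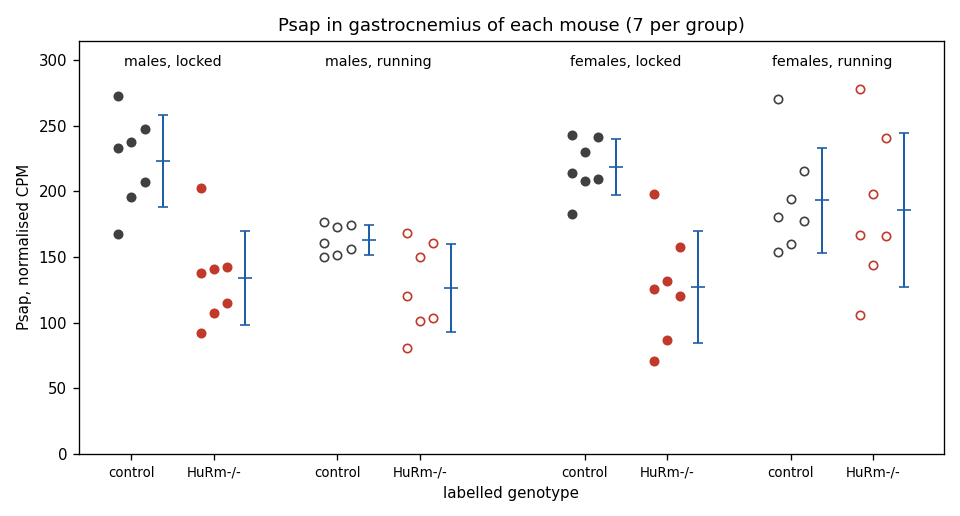
Psap in normalised CPM (vertical axis) for each of 56 mice, as points by labelled genotype, sex and wheel; filled points are locked wheels, open points running wheels, and blue bars show the mean ± SD of 7 mice. In locked mice 6 of 7 labelled mice of each sex lie below all controls, in running males 4 of 7, and in running females 2 of 7.

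Psap was set beside Myl1 mouse by mouse. Among running males, the 4 labelled mice with Psap below all controls (numbers 22, 2, 1 and 21, at 80.8 to 120 CPM) are the 4 with the lowest Myl1, at 5418 to 5774 CPM. The other 3 labelled males had Myl1 of 9124 to 10810 CPM, against 10290 to 13610 CPM in running controls. The locked mice do not divide in this way throughout. Male number 12 had Myl1 of 13730 CPM with Psap at 138 CPM, and female number 34 had Myl1 of 13360 CPM with Psap at 86.6 CPM, while male number 8 was high in both, at 13100 and 203 CPM. In running females the 2 labelled mice below all controls in Psap were also low in Myl1. Numbers 21 and 22 had Psap of 106 and 144 CPM with Myl1 of 5018 and 4175 CPM. Numbers 7 and 3, highest in Psap among the labelled females at 278 and 241 CPM, had Myl1 of 8473 and 7351 CPM. The division was not complete. Labelled females numbers 2 and 8, among the 3 lowest in Myl1 at 3919 and 4651 CPM, had Psap of 166 and 198 CPM, within the range of the running controls. A split by Myl1 was not particular to Psap. In all 4 labelled groups the mice lowest in Myl1 were also the lowest in Ctsd, given below. The same held for Ctsb in running mice and locked females, but not in locked males. The other members were not set out by Myl1. The part that the Cre allele has in the levels of Psap, Ctsd and Ctsb was not tested.

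**Figure D2:**
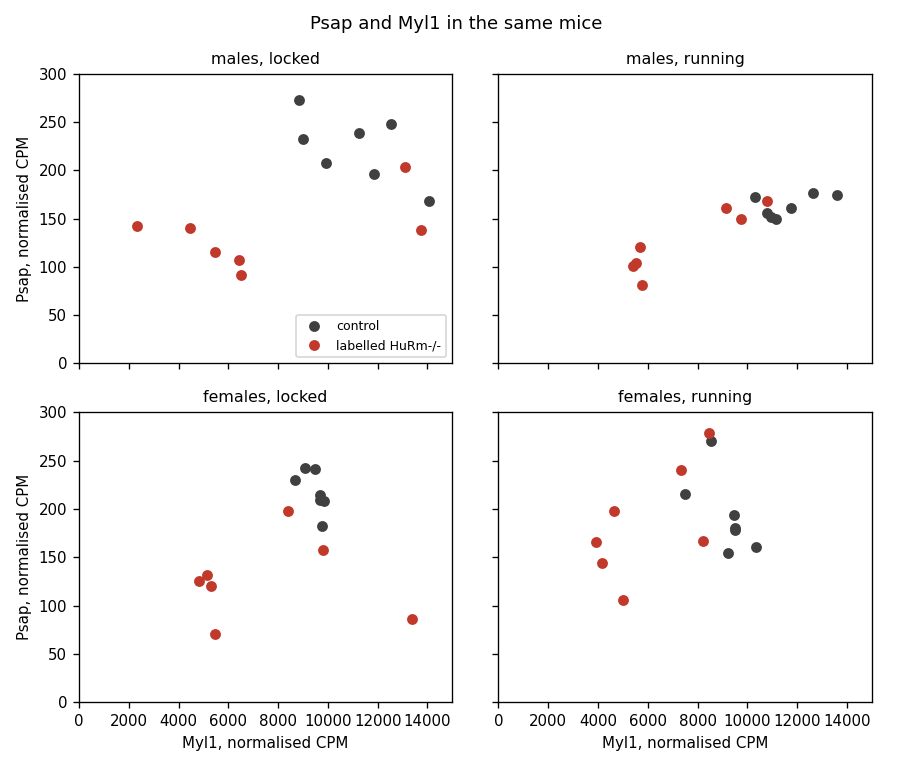
Psap (vertical axis) against Myl1 (horizontal axis), both in normalised CPM, for each mouse in 4 panels by sex and wheel; grey points are controls and red points mice labelled HuRm-/-. In running males the 4 labelled mice lowest in Psap have Myl1 of 5418 to 5774 CPM. In locked mice male 12 and female 34 have low Psap with Myl1 of 13730 and 13360 CPM. In running females number 21 has the lowest Psap (106 CPM) with Myl1 of 5018 CPM. Number 2 has the lowest Myl1 there (3919 CPM) with Psap of 166 CPM.

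Neither membrane glycoprotein was called lower in labelled running mice. Lamp1 (chromosome 8, 13159161 to 13175338, plus strand) was the steadiest member, between 311 and 432 CPM in all 56 mice. Its log2 differences between labelled and control mice were -0.12 in locked males and -0.11 in locked females (SE 0.06 in both), and -0.06 and 0.01 in running males and females, where it was not called (limma adjusted p = 0.712 and 0.957). The 95% confidence interval of its running label effect over both sexes, -0.11 to 0.06, is narrow next to the Psap interval of -0.50 to -0.02.

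Lamp2, the other membrane glycoprotein, which is needed for autophagosomes to fuse with lysosomes and is lost in Danon disease, rose in labelled running mice, where the Psap difference was negative and not called. Its gene lies on chromosome X (38401357 to 38456454, minus strand). Running control males stood at 88.2, 101 and 129.7 CPM (lowest, median and highest) and labelled running males at 112, 125 and 148 CPM, with 3 labelled mice above every control. Lamp2 rose in the labelled running males, with a log2 value of 0.31 (SE 0.08, limma adjusted p = 0.0324) and over both sexes of running mice by 0.20 (SE 0.06, limma adjusted p = 0.0376). In running females it was 0.09 (SE 0.08, limma adjusted p = 0.706), and in locked mice it was -0.04 in males and -0.0044 in females. The call in males was lost without any 1 of 6 mice, MCE numbers 5, 10, 13 and 25 and MHE numbers 21 and 22, with the highest adjusted p without MCE number 10 (0.28, limma adjusted p = 0.115). Without the 3 running control males low in Elavl1 it was 0.20 (limma adjusted p = 0.502), and without the 9 mice with high liver markers 0.26 (limma adjusted p = 0.166). The call over both sexes was lost without any 1 of 12 mice (MCE 5, 10, 13 and 25, MHE 6, 21 and 22, FCE 1 and 27, FHE 2, 8 and 22), with the highest adjusted p without MHE number 22 (0.18, limma adjusted p = 0.0773). It was also lost without the 3 control males (0.14, limma adjusted p = 0.236) and without the 9 mice (0.17, limma adjusted p = 0.119).

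Of the cathepsins, Ctsd fell in labelled running mice over both sexes, Ctsb fell in labelled running males, and Ctsl was not called. Ctsd, an aspartic protease that also cuts prosaposin into saposins (chromosome 7, 142375911 to 142388038, minus strand), stood at 364, 401.5 and 435 CPM (lowest, median and highest) in running control males and 279, 306 and 394 CPM in labelled running males, with 5 of 7 labelled mice below all controls. In running females it stood at 354, 388 and 428 CPM in controls and 308, 339 and 417 CPM in labelled mice, with 4 of 7 below all controls. Over both sexes of running mice Ctsd fell, with a log2 value of -0.22 (SE 0.07, limma adjusted p = 0.0447). Its log2 fold change was -0.29 in running males alone (limma adjusted p = 0.0804) and -0.14 in running females alone (limma adjusted p = 0.559). The call over both sexes was lost in 27 of the 56 fits that left out 1 mouse (highest limma adjusted p = 0.0956, without MHE number 22), while the log2 fold change there was -0.19. It was lost as well without the 9 mice with high liver markers (-0.22, limma adjusted p = 0.0707) and without the 3 control males low in Elavl1 (-0.25, limma adjusted p = 0.054). Its log2 difference in locked mice was -0.40 in males and -0.08 in females, and the locked labelled males included the highest Ctsd of all groups, 436 CPM. That mouse, number 12, and number 8 (327 CPM) were the highest labelled locked males in Myl1, and the others had 224 to 278 CPM. The labelled mice lowest in Myl1 were also lowest in Ctsd in the other groups. Running males 22, 2, 1 and 21 had 279 to 306 CPM and the others 357 to 394 CPM. Running females 22, 8, 2 and 21 had 308 to 339 CPM against 365.5 to 417 CPM. Locked females 13, 19, 14 and 17 had 268 to 326 CPM against 338 to 426 CPM.

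Ctsb, a cysteine protease (chromosome 14, 63122462 to 63145923, plus strand), stood at 111, 115 and 122 CPM (lowest, median and highest) in running control males and at 81.0, 98.2 and 114 CPM in labelled running males. The controls were close together, and 6 of 7 labelled mice lay below all of them. Ctsb fell in the labelled running males, with a log2 value of -0.26 (SE 0.08, limma adjusted p = 0.0486). In running females it was -0.03 (SE 0.08, limma adjusted p = 0.905), and the difference between the sexes was 0.23 (SE 0.11, limma adjusted p = 0.671). The call in males lies at the threshold and was lost in 48 of 56 fits that left out 1 mouse, with the highest adjusted p without MHE number 2 (-0.21, limma adjusted p = 0.18). It was -0.28 without the 9 mice with high liver markers (limma adjusted p = 0.113) and -0.23 without the 3 control males (limma adjusted p = 0.385). In locked mice the log2 difference was -0.14 in males and -0.29 in females, where 5 of 7 labelled mice lay below all controls.

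Ctsl, a cysteine protease like Ctsb (chromosome 13, 64359337 to 64370890, minus strand), had positive running label differences of 0.15 in males and 0.23 in females, neither of which was called (limma adjusted p = 0.548 and 0.343). Labelled running males ranged from 67.9 to 90.1 CPM and controls from 66.7 to 75.8 CPM, and 4 labelled mice lay above all controls. Its locked-wheel differences were 0.08 and -0.11. The lowest Ctsl of all 56 mice, 52.9 CPM, was in locked labelled female number 34, whose group otherwise reached 115 CPM. Without number 34 the locked-wheel difference in females was 0.03.

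Gaa, the glycogen-degrading enzyme (chromosome 11, 119267887 to 119285454, plus strand), had a negative difference between labelled and control mice in all 4 comparisons of sex and wheel, at -0.32 in locked males, -0.22 in locked females, -0.23 in running males and -0.10 in running females. None of the running comparisons passed the test (limma adjusted p = 0.149 in males, 0.685 in females and 0.108 over both sexes). In running males controls stood at 65.9, 74.3 and 84.7 CPM and labelled mice at 53.8, 62.3 and 76.4 CPM, with 5 of 7 labelled mice below all controls.

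Grn (chromosome 11, 102430315 to 102437048, plus strand), whose product travels with prosaposin, had positive differences where Psap had negative ones. Its log2 difference was 0.19 in locked males, 0.05 in locked females, 0.16 in running males and 0.35 in running females. Over both sexes of running mice it was 0.26 (SE 0.09, limma adjusted p = 0.0757). In running females controls stood at 20.8, 31.3 and 42.2 CPM and labelled mice at 29.02, 40.1 and 46.3 CPM, so that the groups overlapped.

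Tfeb, the transcription factor (chromosome 17, 47737030 to 47792419, plus strand), had log2 differences of 0.03 in locked males, 0.31 in locked females, 0.33 in running males and -0.05 in running females. In locked females 6 of 7 labelled mice, at up to 42.7 CPM, lay above all controls, which reached 32.7 CPM. In running males controls stood at 21.9, 24.98 and 36.6 CPM and labelled mice at 27.8, 35.7 and 41.7 CPM (log2 fold change 0.33, SE 0.10, limma adjusted p = 0.0667). The 3 control males lowest in Elavl1 were also the 3 lowest in Tfeb, at 21.9 (number 10), 23.4 (number 13) and 24.8 CPM (number 25). The difference between the sexes in the running label effect was -0.37 (SE 0.14, limma adjusted p = 0.524).

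**Figure D3:**
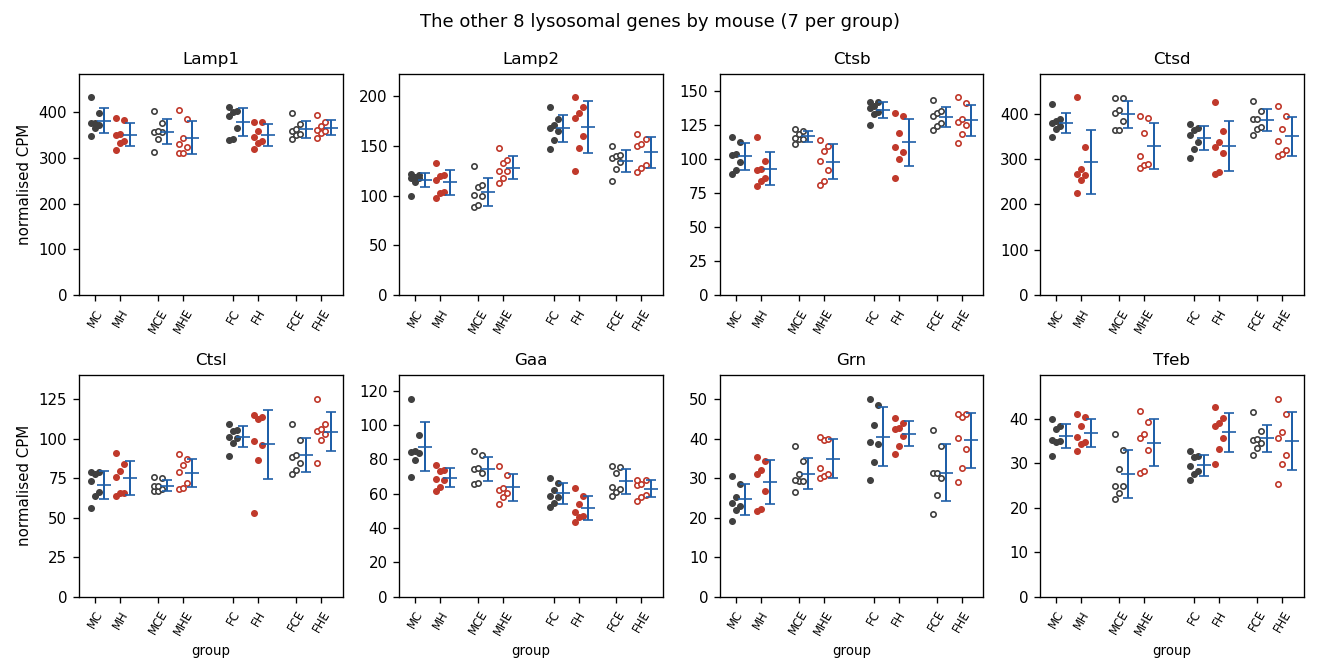
The 8 members other than Psap in normalised CPM (vertical axes, each from 0) for each mouse by group; M and F are males and females, C controls, H labelled HuRm-/-, E running wheels (open points), and blue bars are the mean ± SD of 7 mice. Lamp1 stays between 311 and 432 CPM, and Lamp2, Ctsb and Ctsl are higher in females while Gaa is lower.

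The label comparison over both sexes of running mice called 690 of 14321 genes, 4.82% (1.59% higher and 3.23% lower), and among them 2 of the 9 members, Lamp2 higher and Ctsd lower. The median log2 fold change of the 9 members was -0.02 and that of all genes tested 0.0085. In running males 376 genes were called, 2.63% (0.754% higher and 1.87% lower), with 2 members among them, Lamp2 higher and Ctsb lower, and member and overall medians of -0.06 and -0.0020. In running females limma called 0 genes, 0%, with 1807 at an unadjusted p under 0.05, edgeR's quasi-likelihood test also called 0 and DESeq2 71, and no member was called. With 9 members, the counts of 2 say little against these shares. In locked males and females the same threshold takes in 1.15% and 0.384% of genes and, by the choice of Psap, it takes in Psap; the counts of members there, 3 and 1, are given for completeness and nothing is read from them. The test of whether the label effect differed between the sexes of running mice called 2 genes, 0.014%, and no member. The running-wheel comparisons share no mouse with the locked-wheel ones.

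Beside these label comparisons, 0 of 13 tested macrophage and leukocyte markers and 0 of 12 liver markers were called over both sexes of running mice. Of 15 muscle fibre markers 3 were called, with the slow-fibre troponins Tnnt1 (log2 fold change 0.53) and Tnni1 (0.44) higher and the glycolytic enzyme Eno3 (-0.18) lower in labelled mice. Of the 10 genes listed as adipocyte markers Car3 was called (0.46), as was 1 in running males, Lpl (-0.42). No other gene of that list, Adipoq and Plin1 among them, was called in either comparison, so nothing is read about adipocytes. In bulk muscle, fewer cells of a type and less RNA per cell cannot be told apart, and the part of these markers in the results was not tested.

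**Figure D4:**
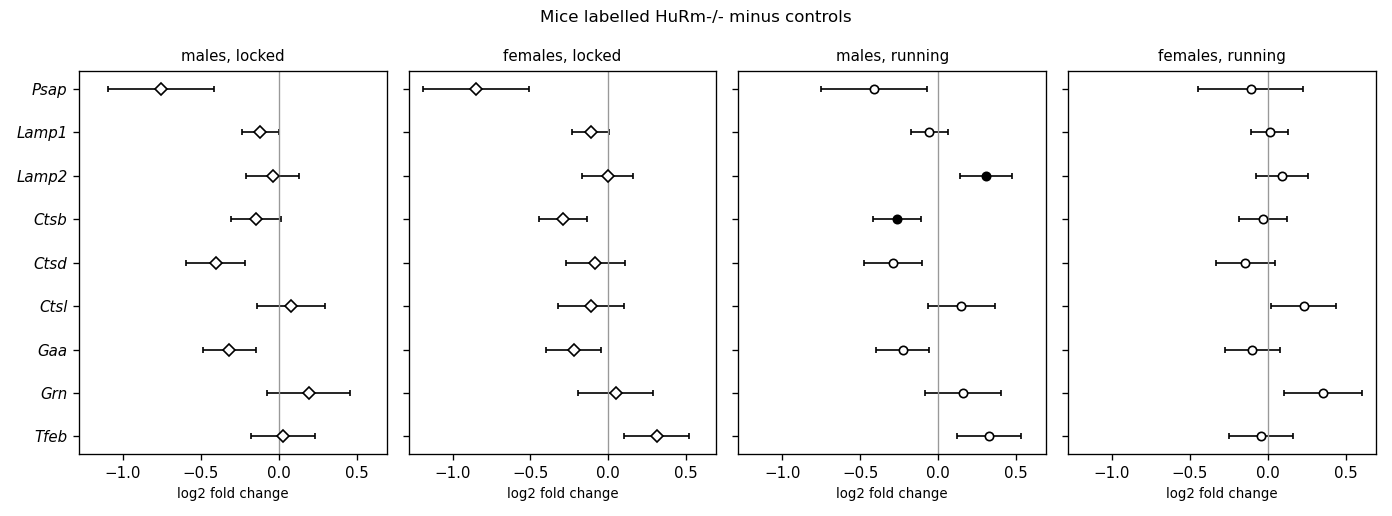
Log2 fold change of mice labelled HuRm-/- over controls (horizontal axis) for the 9 members in 4 panels by sex and wheel; points are limma estimates with 95% confidence intervals. Open diamonds in the locked panels were not tested because these comparisons chose Psap, filled circles passed an adjusted p of 0.05 and open circles did not; Lamp2 (0.31) and Ctsb (-0.26) are filled in running males and no member is in running females.

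The saposins' partners were looked at in 8 wider lists of lysosomal and autophagy genes, of whose 129 genes 127 are in the table and all 127 were tested. Over both sexes of running mice, 0 were higher and 5 lower in labelled mice, 3.94% against 4.82% of all genes. The 12 partners of the saposins and other sphingolipid hydrolases, among them Galc and Arsa, held 0 called genes and had a median log2 fold change of -0.03. The 13 proteases other than the members held 0 called genes, as did the 15 measured v-ATPase subunits and the 12 sorting genes. The 5 lower genes were Map1lc3b, the autophagosome coat protein LC3B (-0.38, SE 0.09, limma adjusted p = 0.0073), the lysosomal acid phosphatase Acp2 (-0.28, limma adjusted p = 0.0376), the lysosomal membrane protein Laptm4b (-0.24, limma adjusted p = 0.0389), Mitf, a relative of Tfeb (-0.18, limma adjusted p = 0.0354), and Rragd, a GTPase that ties amino acids and Tfeb to the lysosome (-0.16, limma adjusted p = 0.034). In running males 1 gene of the lists was higher, the v-ATPase subunit Atp6v0d1 (0.37, limma adjusted p = 0.017), and 4 were lower, Map1lc3b (-0.51, limma adjusted p = 0.0153), the autophagy receptor Nbr1 (-0.32, limma adjusted p = 0.0178), Atp6v0a2 (-0.31, limma adjusted p = 0.0472) and Mitf (-0.27, limma adjusted p = 0.033). Without the 3 control males low in Elavl1 the number called was 2 over both sexes and 0 in males, and without the 9 mice with high liver markers it was 3 and 0. Single mice moved these counts too. Over both sexes the number was 1 without FCE 1, FHE 22, MCE 10, MHE 2, MHE 21 or MHE 22, 2 without FCE 28, FHE 2 or FHE 21, 3 without FCE 5, FCE 27 or MCE 13, 8 without FCE 25 or MHE 6, 9 without MHE 4 and 10 without FH 34. In males it was 0 without MCE 10, 1 without MHE 22 and 3 without MCE 13, MHE 1, MHE 2 or MHE 21.

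Running against locked wheels was compared as an average over the 4 kinds of mice. Of all genes 854 were called, 5.96% (3.42% higher and 2.54% lower), and of the 8 members other than Psap 1, Lamp2, which fell by 0.13 on the log2 scale (limma adjusted p = 0.049). This call was lost in 34 of 56 fits that left out 1 mouse (highest limma adjusted p = 0.0717, without FH number 19) and without the 3 control males (-0.11, limma adjusted p = 0.152) or the 9 mice with high liver markers (-0.12, limma adjusted p = 0.158). The log2 fold change was 0.13 for Ctsd (limma adjusted p = 0.1) and 0.10 for Ctsb (limma adjusted p = 0.102). For Psap, not tested here for the reason given above, it was -0.04. Of the 127 wider genes 4 were called (3.15%), 2 higher, the protease Lgmn (0.32) and the iduronidase Idua (0.31), and 2 lower, the v-ATPase subunit Atp6v1d (-0.14) and Atg12 (-0.14). Beside the 5.96% of all genes, nothing is read from these counts. Liver markers moved with the wheel, with 6 of 12 lower in running mice, and their summed level had medians of 79.9 and 291 CPM in locked control and labelled males against 59.0 and 107 CPM in running ones.

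Sex went with more called genes than the HuR label, but it was compared over all 56 mice and the label over the 28 running mice. The counts therefore differ in power. Females and males differed in 4720 genes, 33%, with 15.8% of genes higher and 17.1% lower in females, and in 5 of the 9 members. Lamp2 rose in females, with a log2 fold change of 0.41 (limma adjusted p = 9.03e-12). In locked controls it ran from 147 to 189 CPM in females and 100 to 122 CPM in males, without overlap. Ctsl was higher by 0.40 (limma adjusted p = 1.25e-08), at 89.2 to 109 CPM in locked control females against 56.3 to 78.9 CPM in males. Ctsb was higher by 0.31 (limma adjusted p = 2.69e-09) and Grn by 0.35 (limma adjusted p = 7.93e-06). Gaa was lower in females, with a log2 value of -0.28 (SE 0.04, limma adjusted p = 6.35e-07), and in locked controls its ranges of 52.5 to 69.4 CPM in females and 69.7 to 115 CPM in males did not overlap. None of these 5 calls was lost when any 1 mouse was left out.

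Psap, Lamp1, Ctsd and Tfeb were not called between the sexes when the 4 kinds of mice were averaged. For Psap the log2 fold change of females over males was 0.16 (95% confidence interval -0.01 to 0.33, limma adjusted p = 0.147), and for Lamp1 it was 0.03 (95% confidence interval -0.03 to 0.08, limma adjusted p = 0.554). The locked mice in this average also chose Psap, though by label differences within each sex and not by a difference between the sexes. Within the labelled running mice, where 5.57% of genes were called between the sexes, Psap was higher in females by 0.53 (SE 0.17, limma adjusted p = 0.0487), and 3 of the 7 females lay above all 7 males. This call was lost in 41 of 56 fits that left out 1 mouse (highest limma adjusted p = 0.16, without FHE number 7) and without the 9 mice with high liver markers (0.47, limma adjusted p = 0.142) or the 3 control males (0.53, limma adjusted p = 0.0621). Tfeb changed sides with the wheel in controls. It was lower in females under locked wheels by -0.28 (limma adjusted p = 0.047, 21.5% of genes called) and higher under running wheels by 0.39 (limma adjusted p = 0.0106, 7.65% of genes called). The locked call was lost in 33 of 56 fits that left out 1 mouse (highest limma adjusted p = 0.104, without MC number 17) and without the 9 mice (-0.33, limma adjusted p = 0.0704). The running call was lost without MCE number 10 (0.33, limma adjusted p = 0.0505) and without the 3 control males (0.21, limma adjusted p = 0.409).

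Of the 127 wider lysosomal genes 48 were called between the sexes, 29 higher and 19 lower in females. Their 37.8% is near the 33% of all genes (15.8% higher and 17.1% lower), so nothing is read from the count, and the members of each list are given as values. Of the 13 proteases, 6 were higher and 0 lower in females, led by Ctss (0.69), Ctsk (0.46) and Scpep1 (0.38); Ctss is known from antigen-presenting cells and Ctsk from bone-resorbing cells. Of the 19 glycan and lipid hydrolases 6 were higher, led by Galns (0.73), Naglu (0.39) and Lipa (0.38). Of the 15 v-ATPase subunits 5 were higher, led by Atp6ap2 (0.27). Among the 12 sphingolipid hydrolases and activators Glb1 (0.43) and Gm2a (0.25) were higher. The cholesterol exporter Npc1 was lower in females by a log2 fold change of -0.99 (limma adjusted p = 1.88e-15), as were the sorting receptors Sorl1 (-0.68) and Sort1 (-0.46), of which Sort1 carries prosaposin to lysosomes and clears progranulin. Of the 21 autophagosome genes 3 were higher and 6 lower in females, with Optn (-0.68), Sqstm1 (-0.50) and Uvrag (-0.33) the lowest.

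Markers of other cells differed between the sexes as well. Of 13 tested macrophage and leukocyte markers 9 were higher in females and 0 lower, with C1qa at 0.67 and Lyz2 at 0.60, and the summed level of the list ran from 144 to 287 CPM in locked control females against 59.6 to 125 CPM in locked control males. Of 10 adipocyte markers 8 were higher in females, and of 10 endothelial and fibroblast markers 7. Their part in the higher Lamp2, Ctsl, Ctsb and Grn of females was not tested.

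**Figure D5:**
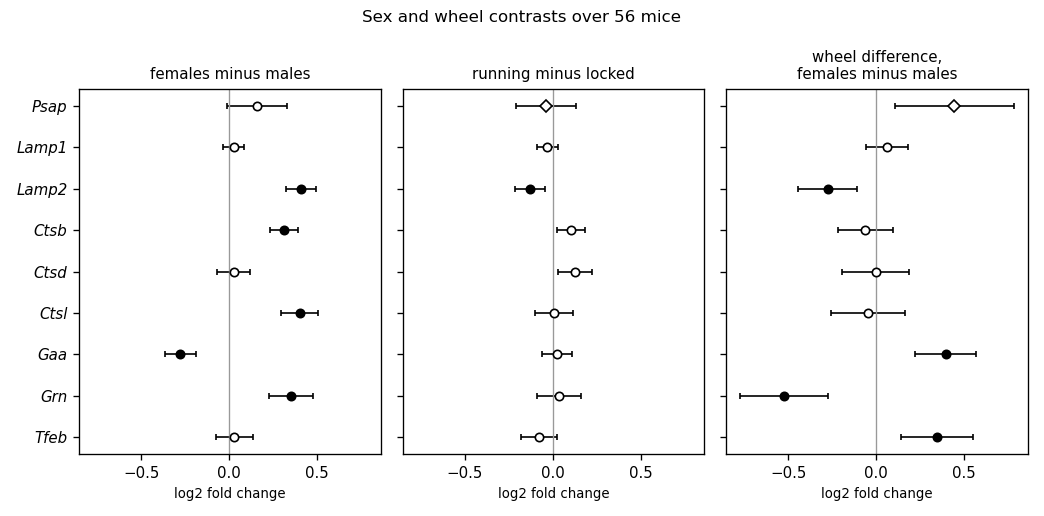
Log2 fold changes (horizontal axis) of the 9 members for females over males, running over locked wheels, and the wheel difference of females minus that of males, with 95% confidence intervals from limma over 56 mice; filled circles passed an adjusted p of 0.05, open circles did not, and the open diamonds of Psap in the wheel panels were not tested. Lamp2 (0.41), Ctsl (0.40), Grn (0.35) and Ctsb (0.31) are filled on the female side and Gaa (-0.28) on the male side, and 4 members are filled in the right panel.

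Males and females differed in how the members went with the wheel. The test of that difference called 1961 genes, 13.7% (6.79% higher and 6.9% lower), and 4 of the 8 members other than Psap, namely Gaa, Tfeb, Grn and Lamp2. Gaa had a wheel difference in females that exceeded that in males by a log2 value of 0.39 (SE 0.09, limma adjusted p = 0.00118). The running minus locked log2 difference of Gaa was -0.22 and -0.13 in control and labelled males and 0.16 and 0.29 in control and labelled females. The median Gaa level went from 84.5 CPM in locked to 74.3 CPM in running control males, and from 58.5 to 64.2 CPM in control females, so that the ranges of the sexes, apart under locked wheels, overlapped under running wheels. For Tfeb the difference between the sexes was also positive, at 0.35 (SE 0.10, limma adjusted p = 0.0169). The running minus locked differences were -0.40 in control males and 0.27 in control females. In labelled mice they lay close together, at -0.10 in males and -0.08 in females, unlike those of Gaa. In control mice 5 of 7 running males lay below every locked male, and 6 of 7 running females above every locked female. Without the 3 control males low in Elavl1, which are the 3 lowest in Tfeb, the difference was 0.26 (limma adjusted p = 0.11).

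Grn and Lamp2 went the other way. For Grn the wheel difference of females was below that of males by -0.53 (SE 0.13, limma adjusted p = 0.00261). Its running minus locked log2 difference was 0.32 and 0.28 in control and labelled males and -0.38 and -0.07 in control and labelled females. Median Grn was 23.8 CPM in locked and 29.6 CPM in running control males, and 39.2 and 31.3 CPM in the corresponding females. For Lamp2 the difference between the sexes was -0.28 (SE 0.08, limma adjusted p = 0.019), made up of -0.17 in control males, 0.18 in labelled males, -0.32 in control females and -0.22 in labelled females. In control females 6 of 7 running mice lay below every locked mouse, with ranges of 115 to 150 CPM and 147 to 189 CPM. Without the 9 mice with high liver markers the difference was -0.37 for Grn (limma adjusted p = 0.0809) and -0.21 for Lamp2 (limma adjusted p = 0.185), and it was still called for Gaa (0.34, limma adjusted p = 0.0262) and Tfeb (0.37, limma adjusted p = 0.0477). For Psap, not tested here, it was 0.44 over all 56 mice (SE 0.17).

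Markers of several other cell types had the sign of Grn and Lamp2 in this comparison. Of the 13 macrophage and leukocyte markers tested, 7 had a wheel difference that was lower in females than in males and 0 a higher one, with Itgam at -1.30, Lyz2 at -1.01 and C1qb at -1.08. The median summed level of the list was 88.9 CPM in locked and 144.8 CPM in running control males, and 195.5 and 102 CPM in the corresponding females; no marker of the list was at 0 in all mice of a group. Beside these sums, the running minus locked difference in control males and females was -0.17 and -0.32 for Lamp2 and 0.32 and -0.38 for Grn. Of the 10 endothelial and fibroblast markers 6 were lower and of the 10 adipocyte markers 4, with 0 higher in both lists and medians of -0.66 and -0.80, against -0.87 for the macrophage list. Of the 15 muscle fibre markers 4 were higher and 0 lower. Proteases of the wider lists had the same sign, with Ctss at -0.80, Ctsh at -0.65 and Scpep1 at -0.45 and 0 of 13 called in the other direction. Of the 19 measured regulators 4 were higher and 0 lower, with Zkscan3, a repressor of lysosomal genes, at 0.43 and Rragd at 0.33. In all, 19 of 127 wider genes were called, 15% against 13.7% of all genes, 8 higher and 11 lower. The part of these cell types in the values was not tested.

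Genes that varied most like Psap were found by Pearson's r of log2 CPM over the 56 mice, which share libraries, groups and depth, so that r is a description. Among 14320 genes the nearest were Rnf166, a ubiquitin ligase (r = 0.87, Spearman's rho = 0.85), Ppp1cb, a catalytic subunit of protein phosphatase 1 (0.84 and 0.78), Dctn6, a dynactin subunit (0.83 and 0.83), Acat1, a mitochondrial enzyme of ketone and isoleucine breakdown (0.80 and 0.76), and Cdv3 (0.79 and 0.78). Leaving out the 2 mice farthest in Psap gave r of 0.84 for Rnf166 and 0.76 for Cdv3. No member of the lysosomal list ranked among them: Lamp1 came 105th with r = 0.61, Ctsb 120th with 0.60, Ctsd 356th with 0.51 and Gaa 842nd with 0.39. The r of Ctsl was 0.07 and of Lamp2 0.05, and those of Tfeb and Grn were negative, at -0.26 and -0.28.

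After each value was taken as its deviation from the mean of its own group, the nearest genes were Rnf166 (r = 0.78), Dctn6 (0.77), Ndufb11, a subunit of respiratory complex I (0.77), Ppp1cb (0.76) and D10Jhu81e (0.75). Ctsb then stood at r = 0.63, Lamp1 at 0.48 and Ctsd at 0.40, Gaa at 0.27, and Grn at -0.30. The label differences of these 7 genes are given as values, since all 56 mice, locked and running, enter the likeness by which they were picked. Over both sexes of running mice they ran from -0.07 for Dctn6 to -0.38 for Cdv3, and in running females Dctn6 stood at 0.04, on the other side of 0 from Psap. In locked males they ran from -0.18 for Ndufb11 to -0.59 for Cdv3.

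Psap was not called in running mice, nor was any tested gene next to it on chromosome 10. Of the 5 genes on each side, reaching 0.328 megabases upstream and 0.812 downstream, Chst3 did not pass the filter, and the other 9 had no called label difference in running mice. In locked males and females the nearest tested gene on each side, Spock2 and Cdh23, had log2 differences of 0.65 (SE 0.33) and 0.15 (SE 0.41) in males and -0.46 (SE 0.33) and -1.57 (SE 0.61) in females. Cdh23 is read from the minus strand and ends at 60302748, close to the end of Psap at 60302597, and since the strand setting of the counting is not given in the sources used here, reads near those ends could fall to either gene.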

How the data were processed

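Gastrocnemius RNA of 56 mice was sequenced. The authors deposited 1 table of raw counts, whole numbers of reads per gene, with 15539 genes and a smallest row total of 168, which means that rarely read genes are missing from it. The labels describe a 3′ mRNA kit read once for 50 bases, and the study's methods a stranded total RNA kit read in pairs; the counts do not settle which, so levels are not compared between genes. The submitters' processing notes name GRCm38 (mm10), R 4.0.3 and edgeR 3.38.4. Aligner, counter and strand setting are not given in the sources used here. Groups were taken from the labels, symbols and positions from GENCODE M21 (15503 genes matched), and promoters from RefSeq.

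Counts were normalised by TMM in edgeR 4.0.16, filtered with filterByExpr (14321 genes), and tested with voom and limma 3.58.1 (R 4.3.3) in 1 fit of all 56 mice with a mean per group. TMM and limma are the study's methods; voom adds weights for counting error. Adjusted p-values are Benjamini-Hochberg over all 14321 genes, with a threshold of 0.05. Levels are normalised CPM, and log2 CPM used a prior count of 2. The exact permutation test was two-sided over 7 and 7 mice. Total counts were 6639782 to 21633091 (median 12380363), of reads without molecular identifiers. The depth of a library bears on counting error only, not on the spread between mice. No label says that mice of a group came from separate litters or batches. No 2 mice of a group agreed within sampling noise (lowest chi-square per degree of freedom 3.56).

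The members and all lists were chosen with earlier results of these data known. Named were all 9 members, Elavl1 and Myl1, up to 3 called genes in each direction from each list, the 5 tested or filtered genes on each side of Psap and the 5 genes most like it. Of the lists, Atp6v0c and Tfec are not in the table, and Fcgr1 did not pass the filter. On simulated counts for the label comparison in running mice (14321 genes), 65 of 100 genes changed by a log2 of 0.5 and 77 of 100 changed by 1 were recovered, with 6 false calls among 148. Over both sexes of running mice no member differed by that much, the largest being Psap at -0.26. Recovery of differences of the members' size was not simulated. Alternatives were DESeq2 1.42.0, its size factors, upper-quartile normalisation, edgeR's quasi-likelihood test, no filter, sample quality weights, the running mice alone, a replicate block and each mouse left out.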

Additional observations from a re-analysis of the deposited data

Results flagged for a closer look

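In 4 of the 8 members other than Psap the wheel difference depended on sex by a test of the difference itself (limma over 14321 genes, of which it called 13.7%). The difference of females minus males was 0.39 for Gaa and 0.35 for Tfeb, and -0.53 for Grn and -0.28 for Lamp2. Without the 9 mice with high liver markers Grn (limma adjusted p = 0.0809) and Lamp2 (limma adjusted p = 0.185) were not called, and without the 3 control males low in Elavl1 Tfeb was not (limma adjusted p = 0.11). Gaa was called without either set (limma adjusted p = 0.0262 and 0.000885). Of 72 tests for a mouse far from its group (9 members in 8 groups of 7), 1 passed, where chance gives about 3.6. Lamp2 stood at 100 CPM in locked control male number 20, and the next lowest of the 7 was 114 CPM.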

How the results depend on the processing

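For Psap the log2 fold change kept its direction in the 10 alternative settings, from -0.21 to -0.27 over both sexes of running mice (adjusted p 0.121 to 0.336), -0.35 to -0.43 in running males (0.0674 to 0.493) and -0.06 to -0.12 in running females, and from -0.73 to -0.81 in locked males and -0.76 to -0.86 in locked females. Without 1 mouse Psap ran from -0.31 to -0.20, -0.49 to -0.30 and -0.22 to 0.012 in the running comparisons, and from -0.86 to -0.66 and -0.97 to -0.72 in the locked ones.

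The number of members called moved with the settings. In the running label comparison over both sexes (2 as reported) it was 1 with edgeR's quasi-likelihood test, 5 with sample quality weights, and 0 without the 9 mice with high liver markers or the 3 control males low in Elavl1; without 1 mouse it was 0 to 3. In running males (2) it was 1 with DESeq2 size factors, upper-quartile normalisation or edgeR's test, 5 with quality weights, 0 without either set of mice, and 0 to 3 without 1 mouse. In the wheel comparison (1) it was 0 with no filter, with the replicate block and without either set of mice, 3 with quality weights, and 0 to 3 without 1 mouse. In wheel by sex (4) it was 2 without the 9 mice. Between the sexes it was 5, or 6 with quality weights. The sex call of Psap in labelled running mice was lost with DESeq2 size factors (adjusted p = 0.0517) and no filter (0.0527), and that of Tfeb in locked controls with these (0.0584 and 0.0559) and upper-quartile normalisation (0.0804). Both sets of mice were chosen after seeing the data. Weak differences that were not called changed sign: Lamp1 in running females (-0.0016 with DESeq2 size factors, -1.0e-05 with DESeq2), Ctsd in wheel by sex (0.0053 with those factors, 0.0041 with edgeR, 0.011 with DESeq2, 0.030 with quality weights, 0.011 without the 9 mice), Ctsl with the wheel (-0.00088 with edgeR, -0.0074 with DESeq2, -0.025 with quality weights) and Tfeb between the sexes (-0.015 and -0.016 without the 9 and the 3 mice). Without 1 mouse the first 3 ran from -0.0099 to 0.036, -0.054 to 0.030 and -0.028 to 0.020, and Tfeb in running females from -0.11 to 0.020. The cause was not tested.

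Mice of both sexes share 12 label numbers within wheel and genotype. The correlation of their deviations ran from -0.20 to 0.18 and exceeded 0.1 in 5 of 12 pairs. Mice of unlike numbers were not correlated, so these values do not decide whether a number pairs mice. The main fit does not pair them. With the replicate block (correlation within a number 0.02) Psap was -0.26 over both sexes of running mice (adjusted p = 0.209). Among the members the block moved 1 call, Lamp2 in the wheel comparison (-0.13, adjusted p = 0.0521).

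Over all genes, quality weights called 1376 in the running label comparison (690 as reported), 1037 in running males (376), 16 in running females (0) and 1331 with the wheel (854). Without the 9 mice the counts were 432, 117, 0 and 454, with 1038 in wheel by sex (1961), and without the 3 control males they were 303 over both sexes and 3 in males. DESeq2 called 71 genes in running females and the running mice fitted alone 6. Leaving out 1 mouse gave 86 in running males without MCE number 10, 150 and 157 without MHE 22 and 21, 189 and 228 without MHE 2 and 1, and 222 and 223 without MCE 25 and 13; over both sexes it gave 419 and 431 without FHE 22 and 2, 425 and 449 without MHE 22 and 21, and 452 without MCE 10. Of the 127 wider lysosomal genes (5 as reported in each), quality weights called 15 over both sexes and 14 in males, DESeq2 11 and its size factors 9 over both sexes, and in wheel by sex 9 were left without the 9 mice. With 6639782 counts in the shallowest library, Grn rested on as few as 144 counts in a mouse.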
